A study of Mus musculus with 75 samples.

Results

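A set of 7 genes for transcription factors of the primitive endoderm, Gata4, Gata6, Sox17, Sox7, Foxa2, Foxq1 and Hnf4a, was followed through every RNA-seq group of a study of retinoic acid (RA) receptors in mouse embryonic stem cells. They were chosen by name, with earlier results of these data known, from 52535 entries in each of the receptor tables and 52636 in the enhancer table. Counts of factors that passed, given below, therefore describe the set and are no independent evidence about it. The cells were of the E14 line, grown on gelatin, and all groups had been induced to differentiate for 24 h with 2 µM RA after LIF and 2i (a MEK inhibitor and a GSK3 inhibitor) were withdrawn. No RNA-seq library came from cells without RA, so no value below is a response to RA itself.

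The first of 3 count tables, on receptor knockouts, set cells lacking RARα (Rarα-KO), RXRα (Rxrα-KO) or both (RARX-DKO) against wild type cells (WT-RARX). In the second, cells overexpressing RARα (Rarα-OE) or RXRα (Rxrα-OE) stood against V-OE, read here as the vector control. In the last, wild type cells (WT-Cyp26) stood against cells without 1 of 2 enhancers of Cyp26 genes (Cyp26-E1-KO, Cyp26-E2-KO), which encode enzymes that break down RA. Groups had 2 libraries each in both receptor tables and 3 libraries each in the table of enhancers, described as biological replicates. The labels give no clone numbers, no method of deletion and no vector. Columns of enhancer mutants bear the codes Ac and b. They were read as E1 and E2 because contact maps of those enhancers use a and b, a reading that is unsure. Titles of the E2 libraries say WT-Cyp26-E2, without the word knockout.

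The primitive endoderm is the sheet of cells that forms on the inner cell mass of the blastocyst and later makes the visceral and parietal endoderm of the yolk sac. GATA6, driven by FGF4 signalling through FGF receptors, opposes NANOG in the choice between primitive endoderm and epiblast, and GATA4, SOX17 and SOX7 act after it. FOXA2 and HNF4A are better known from visceral and definitive endoderm and from liver, HNF4A as a regulator of apolipoprotein genes. FOXQ1 is a forkhead factor studied mostly in epithelia, and its place in the endoderm programme is less settled. RA acts through heterodimers of RAR and RXR, and cultured stem cells given RA are known to yield some extraembryonic endoderm.

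Libraries held 7408691 to 13052102 counts in the knockout table, 7835519 to 11453063 in the overexpression table and 28397794 to 33601996 in the enhancer table. Rara was at 104.4 ± 6.03 CPM (counts scaled to a common library size; mean ± SD, n = 2) in WT-RARX, 4.86 ± 0.696 in Rarα-KO and 6.05 ± 0.679 in RARX-DKO. Rxra was at 42.1 ± 5.49 CPM in WT-RARX, 17.2 ± 1.57 in Rxrα-KO and 20.6 ± 9.88 in RARX-DKO, where the difference did not pass the test (edgeR, adjusted p = 0.0654). Overexpression raised Rara from 52 ± 0.593 to 107.7 ± 4.58 CPM and Rxra from 44.3 ± 1.93 to 203.2 ± 1.58. Cyp26a1 was at 377.1 ± 8.8 CPM in WT-Cyp26, 49.5 ± 13.7 in Cyp26-E1-KO and 380.3 ± 15.2 in Cyp26-E2-KO (n = 3). Cyp26b1, looked up after its values were seen, was lower in Cyp26-E2-KO than in WT-Cyp26 by a log2 fold change of -2.18 ± 0.07. Among knockout libraries, the smallest difference was between replicate 2 of Rarα-KO and replicate 1 of RARX-DKO, with a median ratio to counting variance of 2.89 over genes, against 5.12 to 7.22 within groups. Values without each of these libraries follow the results of the knockout table. Cyp26-E1-KO replicate 2 stood apart from its own group, at ratios of 26.0 and 28.9.

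Promoter sequences from RefSeq (GRCm38.p6) were matched for 2 of the 7 genes, Foxa2 and Hnf4a. Gata4, Gata6, Sox17, Sox7 and Foxq1 had no entry. Both matched genes are shown. Foxa2 rose with receptor overexpression, and Hnf4a fell with the Cyp26 enhancer deletions. Each is printed 5′ to 3′ on the strand of the gene, and capitals mark matches to the motifs searched. Foxa2 is chr2:148046970-148047219, minus strand, up to its outermost start, and Hnf4a is chr2:163506607-163506810, plus strand, up to the GATA match before its outermost RefSeq start.
Foxa2: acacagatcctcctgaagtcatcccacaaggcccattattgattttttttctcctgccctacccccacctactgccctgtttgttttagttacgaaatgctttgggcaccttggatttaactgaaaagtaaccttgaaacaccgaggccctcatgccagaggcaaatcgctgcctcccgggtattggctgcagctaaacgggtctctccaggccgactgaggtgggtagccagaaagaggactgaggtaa
Hnf4a: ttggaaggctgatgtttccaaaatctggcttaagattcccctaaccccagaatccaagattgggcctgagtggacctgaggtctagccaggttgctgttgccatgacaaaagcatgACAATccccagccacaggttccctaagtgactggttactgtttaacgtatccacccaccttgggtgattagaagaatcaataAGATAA

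Windows from 250 bases before to 50 after each start were searched on both strands, 3 windows for Foxa2 and 2 for Hnf4a. The RA receptor core sites AGGTCA and AGTTCA, found in 14.03% and 11.9% of all 32817 promoter windows, had no match in any of the 5, and so neither did the spaced direct repeats made of them. The GATA motif AGATAA, in 9.99% of windows, matched once in the printed Hnf4a stretch, 52 bases before the RefSeq start. GENCODE vM21 places the start of Hnf4a at position 163506808, inside this match, so the distance depends on the annotation. It also matched once in the window of an inner Foxa2 start (chr2:148045415-148045714), 183 bases before that start. The SOX motif ACAAT, in 27.7% of windows, matched once for Hnf4a and not for Foxa2. TGATAA (7.95% of windows), the forkhead motif TGTTTAC (3.16%) and the HNF4 motif CAAAGTCCA (0.384%) had no match. A missing match says only that those letters are not in these windows.

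On mm10 with GENCODE vM21, Gata4 lies at chr14:63198922-63271692 on the minus strand and Sox7 at chr14:63943673-63950732 on the plus strand, so these 2 genes are neighbours. Gata6 is at chr18:11052064-11085635 (plus), Sox17 at chr1:4490931-4497354 (minus) and Foxq1 at chr13:31556134-31560976 (plus). Foxa2, at chr2:148042877-148046969 (minus), and Hnf4a, at chr2:163506808-163572910 (plus), share a chromosome. Genes on the other strand overlap Gata6 (1010001N08Rik, by 504 bases), Foxq1 (A530084C06Rik, by 3200 bases), Sox17 (Gm37587) and Hnf4a (Hnf4aos). Whether the counting used strand is not given in the sources used here, so reads of a gene and of its antisense partner cannot be told apart. In the overexpression table A530084C06Rik had log2 fold changes of 3.70 and 4.21 against V-OE, close to those of Foxq1 below, and in the enhancer table it had 0 counts in every library. The partners of Sox17 and Hnf4a had at most 3 counts in any library.

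**Figure D1:**
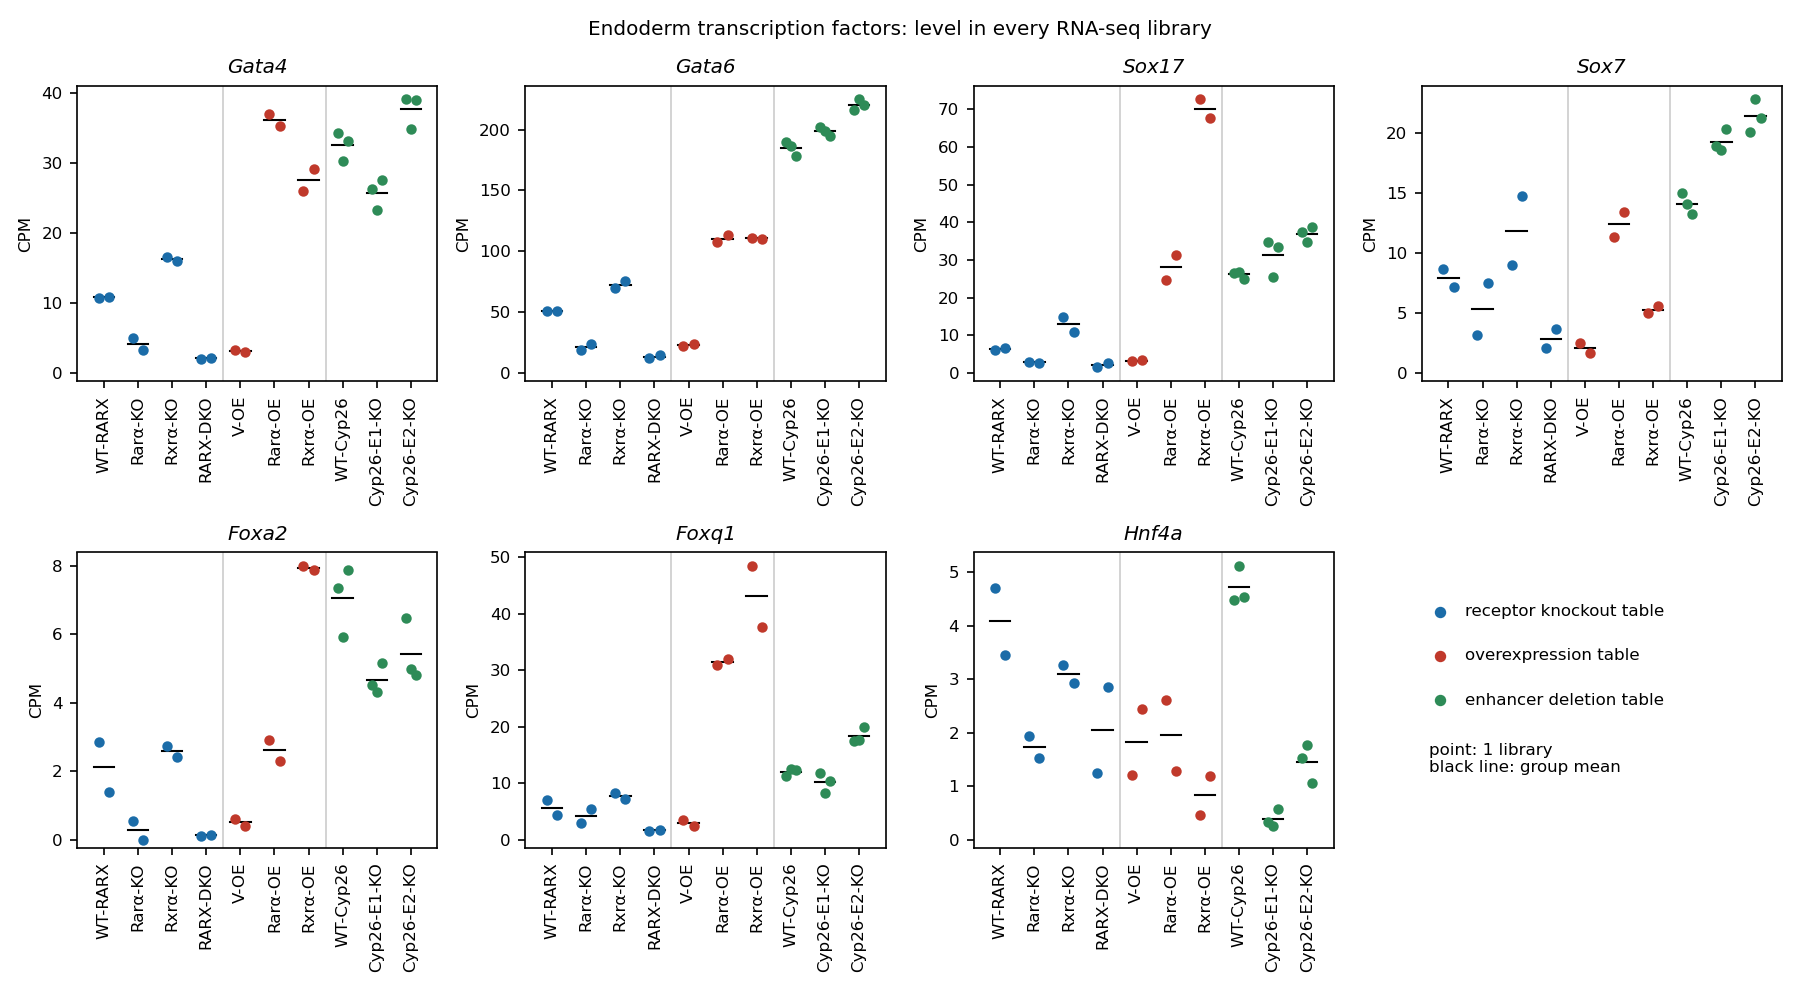
Level of each of the 7 genes in CPM (y axis, linear, a scale of its own for each gene) in every RNA-seq library, by group (x axis); points are libraries, black lines group means, and colours and grey lines separate the tables. Gata6 in RARX-DKO sat at 12.04 and 14.7 CPM against 50.7 and 51.1 in WT-RARX, and Hnf4a in Cyp26-E1-KO at 0.247 to 0.563 against 4.47 to 5.12 in WT-Cyp26.

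Per kilobase of merged exons, Gata6 had the highest level of the 7 genes in all 10 groups, from 2.05 ± 0.287 CPM per kb in RARX-DKO (n = 2) to 33.8 ± 0.727 in Cyp26-E2-KO (n = 3). In the WT-RARX libraries it stood at 7.82 ± 0.0434 CPM per kb, followed by Gata4 at 2.77 ± 0.0395 and Sox7 at 2.40 ± 0.325. The gap between Gata4 and Sox7 was little larger than the SD of Sox7. Sox17, at 1.33 ± 0.0526 CPM per kb, lay within the spread of Foxq1 (1.17 ± 0.370). Foxq1, Foxa2 (0.894 ± 0.440) and Hnf4a (0.845 ± 0.182) were not separable. Hnf4a was the lowest of the 7 per kb in 7 of 10 groups and Foxa2 in the other 3, Rarα-KO, RARX-DKO and V-OE. The tables were counted and scaled separately, so their levels are set side by side and not compared.

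Markers of the endoderm made outside the embryo proper were present in the cells, with 16 or 17 of a list of 20 at 1 CPM or more in every group. That list holds the 7 factors themselves, so it is no separate evidence for the label. Of its 13 other genes, 10 were tested in the knockout table. Of a list of 20 visceral endoderm genes, 11 passed the filter in the knockout table, 13 in the overexpression table and 14 in the enhancer table. Among the low genes of that list, Afp, Ttr and Apoa1 were at or under 2.26 CPM in every group. The stem cell markers were all present as well, 10 of 10 at 1 CPM or more in each group. Of 12 definitive endoderm and primitive streak genes, cells which the 7 factors can also mark, 2 (RARX-DKO) to 7 (Rxrα-OE) were at 1 CPM or more. Among the low ones, Cer1 was at 0 in 6 groups and at most 0.31 CPM elsewhere, and Mixl1 did not exceed 1.52. In bulk RNA, fewer cells of a type and less RNA per cell cannot be told apart.

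Loss of Rarα lowered Gata6, and loss of both receptors lowered Gata6, Gata4 and Sox17, while loss of Rxrα alone moved none of the 7 genes past the test. Against WT-RARX the log2 fold change was below 0 for all 7 genes in Rarα-KO (median -1.23) and in RARX-DKO (median -1.74), but above 0 for 6 of 7 in Rxrα-KO (median 0.51). The medians over all 16445 tested genes were within 0.01 of 0. In Rarα-KO 1 of 7 factors fell, where 0.255% of all tested genes fell, 0.389% rose and 0.645% did either. In Rxrα-KO no factor passed where 2.47% of all genes did in either direction, 1.28% higher and 1.2% lower. An unadjusted p under 0.05 was found there for 2 of 7 factors and for 16.0% of all genes. In RARX-DKO 3 of 7 fell, where 1.19% of all genes fell, 1.05% rose and 2.24% did either. These comparisons share the WT-RARX libraries.

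Gata6, the factor that starts the programme, was at 50.7 and 51.1 CPM in WT-RARX, 18.6 and 24.0 in Rarα-KO, 70.2 and 75.2 in Rxrα-KO, and 12.04 and 14.7 in RARX-DKO. The 4 groups did not overlap, with Rxrα-KO highest and RARX-DKO lowest, which with 2 libraries a group is a description. Gata6 did not differ past the test between RARX-DKO and Rarα-KO (edgeR, adjusted p = 0.917). It fell by 1.25 ± 0.17 (SE) on the log2 scale in Rarα-KO (edgeR, adjusted p = 0.00963) and by 1.93 ± 0.18 in RARX-DKO (adjusted p = 0.000139). In Rxrα-KO its log2 fold change was 0.51 ± 0.17 (adjusted p = 0.135). The fall in RARX-DKO passed without any single library. The one in Rarα-KO did not pass without WT-RARX replicate 1, WT-RARX replicate 2 or Rarα-KO replicate 1 (adjusted p = 0.132, 0.201 and 0.15), and did without Rarα-KO replicate 2 (-1.45, adjusted p = 0.0198).

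Gata4, which shares DNA motifs and many targets with GATA6, followed the same order. It was at 10.7 and 10.9 CPM in WT-RARX, 5.03 and 3.28 in Rarα-KO, 16.5 and 16.0 in Rxrα-KO, and 2.05 and 2.18 in RARX-DKO. The groups again did not overlap, but Gata4 did not pass in Rxrα-KO (0.59 ± 0.28, edgeR, adjusted p = 0.315). Nor did it pass between RARX-DKO and Rarα-KO (-0.98 ± 0.35). In RARX-DKO it fell by 2.35 ± 0.33 on the log2 scale (edgeR, adjusted p = 0.00264), and without WT-RARX replicate 2 the adjusted p was 0.059. In Rarα-KO the log2 fold change of -1.38 ± 0.30 missed the threshold (adjusted p = 0.0593) and passed it by DESeq2 (0.0186), with only the 2 groups fitted (0.0166) and without the filter on low counts (0.00676).

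Sox17 and Sox7 belong to the SOX group F factors, which are active in extraembryonic endoderm and in endothelium. Sox17 was at 6.17 and 6.53 CPM in WT-RARX, 2.89 and 2.73 in Rarα-KO, 15.0 and 10.9 in Rxrα-KO, and 1.59 and 2.58 in RARX-DKO. It fell by 1.62 ± 0.37 on the log2 scale in RARX-DKO (edgeR, adjusted p = 0.0383). That call was lost with a replicate block (0.0615), with only the 2 groups fitted (0.0647), and without either WT-RARX library (0.2 and 0.274) or RARX-DKO replicate 1 (0.186). Sox7 was at 8.66 and 7.14 CPM in WT-RARX, 3.21 and 7.53 in Rarα-KO, 8.98 and 14.7 in Rxrα-KO, and 2.05 and 3.67 in RARX-DKO. Its replicates differed more than 2-fold in Rarα-KO and overlapped WT-RARX there, and its log2 fold change of -1.48 ± 0.45 in RARX-DKO did not pass (adjusted p = 0.118).

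Foxa2, a pioneer factor of the forkhead family, was close to the limit of detection. It had 31 and 18 counts in WT-RARX, 5 and 0 in Rarα-KO, 21 and 19 in Rxrα-KO, and 1 and 1 in RARX-DKO. It entered the test through WT-RARX and Rxrα-KO, the 2 groups where it was above the filter's floor of 1.16 CPM. On pooled counts WT-RARX was 16.6-fold above RARX-DKO (95% counting interval 4.35 to 141, counting error only) and 7.60-fold above Rarα-KO (3.04 to 24.4). The library with 0 counts was Rarα-KO replicate 2, and without it the fitted log2 fold change was -1.95 ± 0.80 (edgeR, adjusted p = 0.628), against -2.90 with it. The fitted changes missed the threshold (edgeR, adjusted p = 0.0512 in RARX-DKO and 0.145 in Rarα-KO).

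Foxq1 stood at 6.91 and 4.38 CPM in WT-RARX, 2.89 and 5.35 in Rarα-KO, 8.20 and 7.12 in Rxrα-KO, and 1.59 and 1.77 in RARX-DKO. The RARX-DKO libraries were below all others, with a log2 fold change of -1.74 ± 0.43 (edgeR, adjusted p = 0.0524). Hnf4a, a nuclear receptor of liver and visceral endoderm, was at 4.70 and 3.46 CPM in WT-RARX, 1.93 and 1.53 in Rarα-KO, 3.25 and 2.92 in Rxrα-KO, and 1.25 and 2.86 in RARX-DKO. Its highest mean was in WT-RARX and not in Rxrα-KO, unlike the other 6 genes, and none of its changes in this table passed.

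The members were also fitted without the 2 libraries that were most alike. Without Rarα-KO replicate 2, the log2 fold changes in Rarα-KO were -1.10 for Gata4, -1.13 for Sox17, -1.30 for Sox7, -0.96 for Foxq1 and -1.07 for Hnf4a, and Gata6 alone passed. Without RARX-DKO replicate 1, Gata4 (-2.30, edgeR, adjusted p = 0.019) and Gata6 (-1.79, 0.00139) passed in RARX-DKO. The others were then at -1.29 for Sox17, -1.10 for Sox7, -3.82 for Foxa2, -1.66 for Foxq1 and -0.50 for Hnf4a.

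Set directly against each other, the single knockouts differed in 4 of 7 factors, all higher in Rxrα-KO, where 2.19% of all genes were higher, 3.19% lower and 5.38% either. Gata6 was higher by 1.77 ± 0.18 on the log2 scale (edgeR, adjusted p = 0.000245), Gata4 by 1.97 ± 0.30 (0.00391), Sox17 by 2.199 ± 0.35 (0.00434) and Foxa2 by 3.19 ± 0.82 (0.0392). Without Rarα-KO replicate 2 the count was 1, Gata6, since adjusted p rose to 0.0612 for Gata4, 0.059 for Sox17 and 0.261 for Foxa2. Foxa2 passed the filter only through groups where it was high. On pooled counts (40 against 5) it was 9.52-fold higher in Rxrα-KO (95% counting interval 3.76 to 30.9, counting error only). It was also lost without either Rxrα-KO library (0.111 and 0.0973) and with only the 2 groups fitted (0.0763).

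Between RARX-DKO and Rxrα-KO, 6 of 7 factors were lower in RARX-DKO, where 1.48% of all genes were, with 2.01% higher and 3.5% either. The falls of 5 ran from 2.06 ± 0.45 for Sox7 (edgeR, adjusted p = 0.0261) to 2.94 ± 0.33 for Gata4 (0.000638) on the log2 scale, with Gata6 at 2.45 ± 0.19 (1.55e-05). Foxa2, the sixth (adjusted p = 0.0312), had 1 and 1 counts in RARX-DKO and passed the filter only through WT-RARX and Rxrα-KO. On pooled counts it was 20.8-fold higher in Rxrα-KO (95% counting interval 5.39 to 177, counting error only). Hnf4a did not pass (-0.61 ± 0.47, adjusted p = 0.54). Gata4, Gata6 and Sox17 passed without any 1 library, and without RARX-DKO replicate 1 they were the 3 that did. With only the 2 groups fitted 2 passed, Gata4 and Gata6. Between RARX-DKO and Rarα-KO an unadjusted p under 0.05 was found for 3 factors and for 3.42% of all genes. No factor passed there, where 0.0122% of all genes did, each of them lower. The count was 0 by DESeq2 too, and by edgeR without Rarα-KO replicate 2 or RARX-DKO replicate 1.

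A further test asked whether RARX-DKO departed from the sum of the single knockout effects on the log2 scale. No factor and no gene at all passed (0% called by edgeR). An unadjusted p under 0.05 was found for 5 of 7 factors and for 1083 genes, 6.59% of all tested. The departures were -1.57 ± 0.44 for Gata4, -1.19 ± 0.25 for Gata6, -1.47 ± 0.50 for Sox17, -1.51 ± 0.61 for Sox7 and -1.73 ± 0.58 for Foxq1. Without Rarα-KO replicate 2 they were -1.84 for Gata4, -0.996 for Gata6, -1.51 for Sox17, -0.77 for Sox7 and -1.23 for Foxq1. Without RARX-DKO replicate 1 they were -1.52, -1.05, -1.15, -1.14 and -1.66 in the same order. No factor passed in either case. Gata6 passed by DESeq2 (adjusted p = 0.0434) and without the filter on low counts (0.00927).

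**Figure D2:**
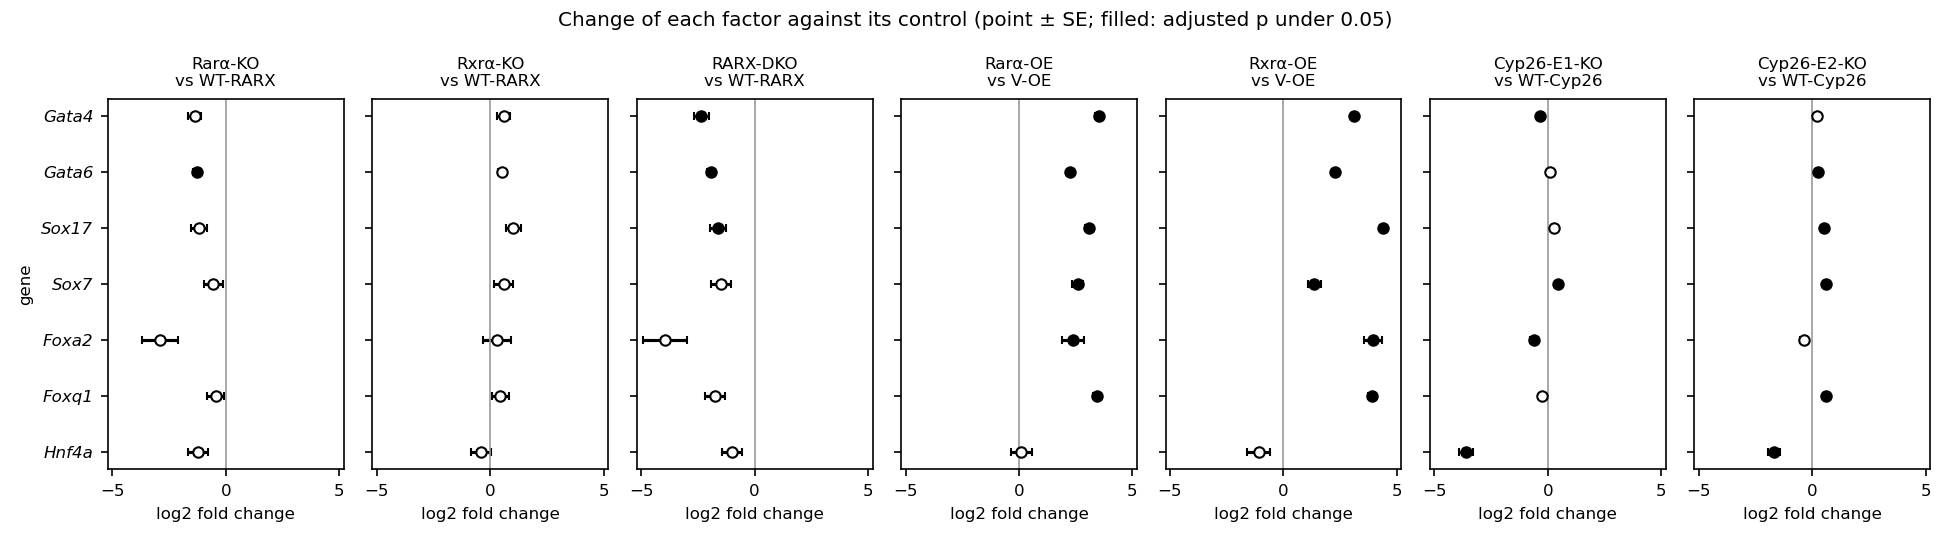
Log2 fold change (x axis) of each of the 7 genes (y axis) in the 7 comparisons of a mutant or overexpressing group with its control; points are edgeR estimates, bars ± 1 SE, and filled points have an adjusted p under 0.05. In Rarα-OE and Rxrα-OE 6 of 7 points are filled and to the right of 0, and Hnf4a stands apart, lowest in Cyp26-E1-KO at -3.63.

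Overexpression of either receptor raised Gata4, Gata6, Sox17, Sox7, Foxa2 and Foxq1, and Hnf4a did not pass in either case. Foxa2, counted below among the genes that rose, passed the filter only through the overexpressing groups, where it was high. The median log2 fold change of the 7 was 2.58 in Rarα-OE and 3.12 in Rxrα-OE, with medians over all 16914 tested genes within 0.01 of 0. In Rarα-OE 6 of 7 rose, where 14.7% of all genes rose, 13.9% fell and 28.6% did either. In Rxrα-OE 6 of 7 rose, where 30.9% of all genes rose, 29.3% fell and 60.2% did either, so passing there separates a gene little from the rest. The 6 calls passed in both comparisons under all alternatives tried. Both comparisons share the V-OE libraries.

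Gata4 was at 3.26 and 3.06 CPM in V-OE, 37.0 and 35.2 in Rarα-OE, and 25.9 and 29.1 in Rxrα-OE, rising by 3.51 ± 0.16 and 3.12 ± 0.17 on the log2 scale (edgeR, adjusted p = 7.00e-25 and 2.78e-23). Gata6 was at 22.6 and 23.7 CPM in V-OE, 107.7 and 113.2 in Rarα-OE, and 111.2 and 110.1 in Rxrα-OE. Its rise was 2.25 ± 0.08 and 2.26 ± 0.08. The groups with extra receptor overlapped for Gata6 and not for Gata4, and no overexpressing library came near the control.

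Sox17 was at 3.26 and 3.37 CPM in V-OE, 24.8 and 31.4 in Rarα-OE, and 72.6 and 67.7 in Rxrα-OE. Sox7 was at 2.54 and 1.63, 11.4 and 13.5, and 4.97 and 5.58 CPM in the same order of groups. The SOX factors thus had opposite orders: Sox17 was highest in Rxrα-OE and Sox7 in Rarα-OE, with no overlap between groups. Sox17 rose by 3.07 ± 0.16 and 4.39 ± 0.14 on the log2 scale, and Sox7 by 2.58 ± 0.26 and 1.37 ± 0.29.

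Foxa2 was at 0.604 and 0.408 CPM in V-OE, which is 5 and 4 counts, 2.91 and 2.31 in Rarα-OE, and 7.98 and 7.86 in Rxrα-OE. It was below the filter's floor in V-OE and entered the test through the overexpressing groups. On pooled counts it was 5.32-fold (95% counting interval 2.58 to 12.4, counting error only) and 15.9-fold (8.17 to 35.4) above V-OE. Foxq1 was at 3.503 and 2.35 CPM in V-OE, 31.0 and 31.9 in Rarα-OE, and 48.5 and 37.6 in Rxrα-OE, rises of 3.44 ± 0.18 and 3.88 ± 0.17.

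Hnf4a did not follow them. It was at 1.21 and 2.45 CPM in V-OE, 2.61 and 1.28 in Rarα-OE, and 0.463 and 1.183 in Rxrα-OE. The Rarα-OE libraries spanned those of V-OE (log2 fold change 0.10 ± 0.46, edgeR, adjusted p = 0.899). Both Rxrα-OE libraries lay below V-OE (-1.09 ± 0.52, adjusted p = 0.0638), which passed without V-OE replicate 1 (0.0247), without Rxrα-OE replicate 2 (0.03) and with only the 2 groups fitted (0.049).

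Compared with Rarα-OE, Rxrα-OE had more Sox17 (by 1.33 ± 0.10 on the log2 scale), Foxa2 (1.58 ± 0.28) and Foxq1 (0.44 ± 0.11), where 23.8% of all genes were higher. It had less Gata4 (-0.39 ± 0.11) and Sox7 (-1.22 ± 0.21), where 23.4% were lower and 47.2% either. Gata6 did not pass, at 0.00 ± 0.07, and neither did Hnf4a, at -1.19 ± 0.51 with an adjusted p on the threshold (edgeR, 0.05), which passed with only the 2 groups fitted (0.0406) and without Rarα-OE replicate 2 or Rxrα-OE replicate 2 (0.0164 and 0.0286). The calls of Gata4 and Foxq1 were lost by DESeq2 (adjusted p = 0.106 and 0.0563) and without Rxrα-OE replicate 1 (0.076 and 0.158).

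Deleting either Cyp26 enhancer lowered Hnf4a, and left the GATA, SOX and FOX factors at log2 fold changes between -0.60 and 0.61. The median log2 fold change of the 7 was -0.24 in Cyp26-E1-KO and 0.25 in Cyp26-E2-KO. In Cyp26-E1-KO 3 factors fell, where 12.1% of all 18768 tested genes did, and 1 rose, where 13.1% did and 25.3% did either. In Cyp26-E2-KO 1 fell, where 8.2% did, and 4 rose, where 9.28% did and 17.5% did either. Both comparisons share the WT-Cyp26 libraries, and with deeper libraries and 3 replicates smaller changes passed than in the other tables.

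Hnf4a was at 4.47, 5.12 and 4.54 CPM in WT-Cyp26, 0.325, 0.247 and 0.563 in Cyp26-E1-KO, and 1.52, 1.76 and 1.05 in Cyp26-E2-KO. The groups did not overlap. Hnf4a entered the test through WT-Cyp26 and Cyp26-E2-KO, the groups with every library at or above the filter's floor of 0.333 CPM. It fell by 3.63 ± 0.31 on the log2 scale in Cyp26-E1-KO (edgeR, adjusted p = 1.59e-06) and by 1.71 ± 0.26 in Cyp26-E2-KO (0.000479), and the deletions differed by 1.92 ± 0.33 (0.00398). In counts the Cyp26-E1-KO libraries held 10, 7 and 16 reads of Hnf4a against 136 to 154 in WT-Cyp26. These 3 calls passed under all alternatives tried, including without Cyp26-E1-KO replicate 2.

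Gata4 was at 34.3, 30.2 and 33.1 CPM in WT-Cyp26, 26.2, 23.3 and 27.5 in Cyp26-E1-KO, and 39.1, 34.8 and 38.9 in Cyp26-E2-KO. It fell by 0.34 ± 0.09 on the log2 scale in Cyp26-E1-KO (edgeR, adjusted p = 0.0146), a call lost without WT-Cyp26 replicate 1 or 3 (0.0705 and 0.0597). It did not pass in Cyp26-E2-KO (0.21 ± 0.09, adjusted p = 0.14). Between the deletions Gata4 differed by 0.55 ± 0.09 (0.00369). Gata6 was at 189.7, 186.8 and 178.2 CPM, 202.4, 198.9 and 194.5 CPM, and 215.7, 225.2 and 219.8 CPM in the same order. Its rise of 0.25 ± 0.06 in Cyp26-E2-KO passed (0.009), and 0.10 ± 0.06 in Cyp26-E1-KO did not (0.231).

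Sox7 rose with both deletions, from 13.3 to 15.0 CPM in WT-Cyp26 to between 18.6 and 20.4 in Cyp26-E1-KO and between 20.1 and 22.9 in Cyp26-E2-KO. The log2 fold changes were 0.45 ± 0.10 (edgeR, adjusted p = 0.00431) and 0.60 ± 0.10 (0.000854). Sox17 was at 24.9 to 26.9 CPM in WT-Cyp26, 25.6 to 34.8 in Cyp26-E1-KO and 34.7 to 38.8 in Cyp26-E2-KO, and passed in the latter (0.50 ± 0.11, 0.00568). In Cyp26-E1-KO its lowest value was that of replicate 2, and without that library Sox17 passed there too (0.38, adjusted p = 0.000423).

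Foxa2 was at 7.36, 5.92 and 7.88 CPM in WT-Cyp26, 4.52, 4.31 and 5.14 in Cyp26-E1-KO, and 6.46, 4.99 and 4.80 in Cyp26-E2-KO. It fell by 0.60 ± 0.17 on the log2 scale in Cyp26-E1-KO (edgeR, adjusted p = 0.019). That call was lost without WT-Cyp26 replicate 1, WT-Cyp26 replicate 3 or Cyp26-E1-KO replicate 1 (0.0671, 0.0909 and 0.0507). Foxq1 rose in Cyp26-E2-KO, from 11.3 to 12.5 CPM in WT-Cyp26 to between 17.5 and 19.98 (0.61 ± 0.13, adjusted p = 0.00454). In Cyp26-E1-KO it was at 8.30 to 11.9 CPM and did not pass. Between the deletions 3 of 7 factors were higher in Cyp26-E2-KO, where 2.02% of all genes were, 2.46% lower and 4.49% either: Gata4, Foxq1 (0.85 ± 0.13, adjusted p = 0.00187) and Hnf4a.

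**Figure D3:**
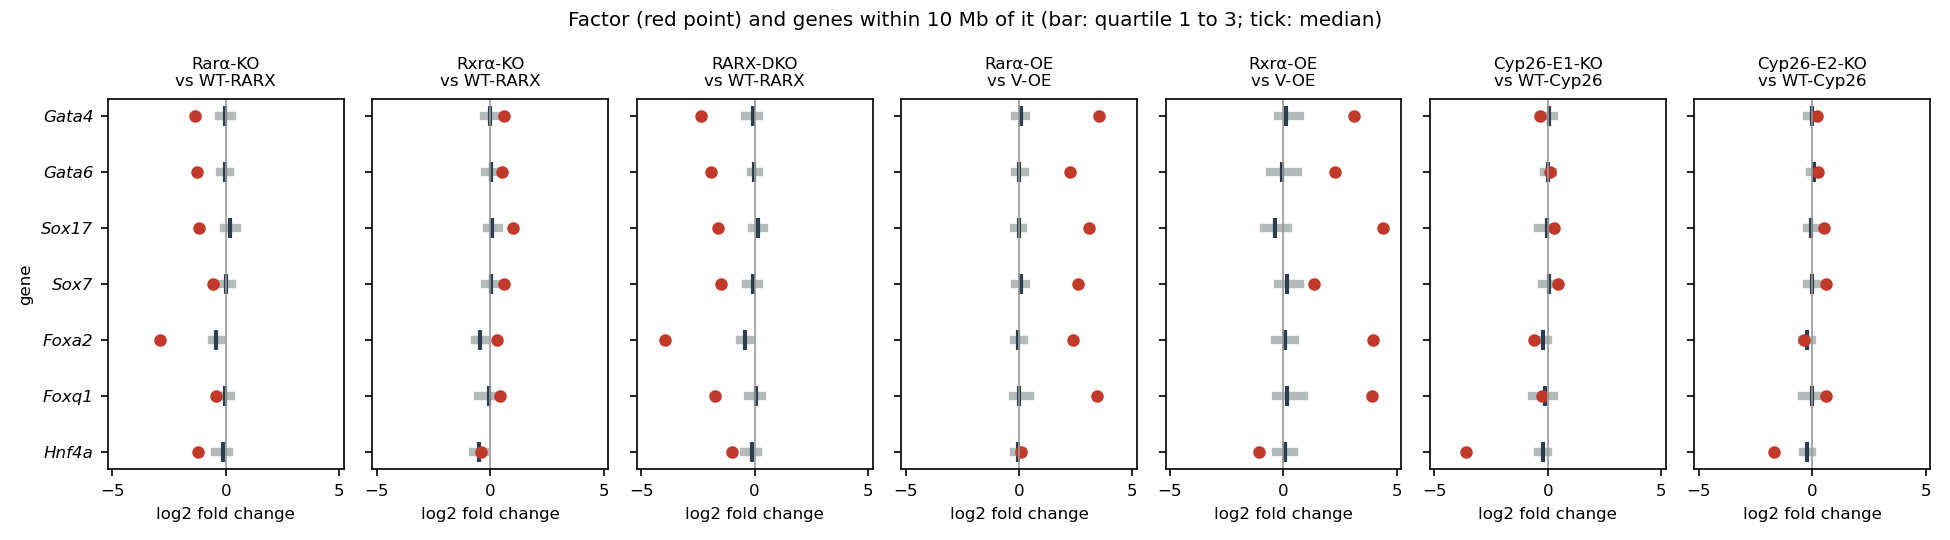
Log2 fold change (x axis) of each of the 7 genes (red point) and of the other tested genes within 10 Mb of it (grey bar from quartile 1 to quartile 3, dark tick at the median) in the 7 comparisons with a control. Against the WT-RARX libraries they share, neighbours of Foxa2 sit left of 0 in all 3 receptor knockouts, at medians of -0.43, -0.46 and -0.42. Foxa2 itself was at -2.90, 0.29 and -3.94.

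Since cultured stem cells can gain or lose stretches of chromosome, each change was set beside the median of the tested genes within 10 Mb. Against WT-RARX, the control they share, the receptor knockouts had log2 medians around Foxa2 of -0.43 (Rarα-KO), -0.46 (Rxrα-KO) and -0.42 (RARX-DKO). By library, as a deviation from the mean of the table, that median was 0.315 and 0.365 in WT-RARX and -0.116 to -0.088 in the knockouts. Rxrα-KO was at 0.03 against Rarα-KO, and RARX-DKO at 0.01 against Rarα-KO and -0.02 against Rxrα-KO. The genes around Hnf4a, further along chromosome 2, were at -0.13, -0.49 and -0.11 against WT-RARX. In the enhancer table medians around Foxa2 were -0.221 and -0.225, and around Hnf4a -0.19 and -0.22. There the WT-Cyp26 libraries deviated by 0.144 to 0.166 around Foxa2, and those with a deletion by -0.090 to -0.031. Against its neighbours Foxa2 was at -0.38 in Cyp26-E1-KO rather than -0.60, and Hnf4a at -3.43 rather than -3.63. Copy number was not measured, and its part in these changes was not tested. Genes around Sox17 had medians of 0.18, 0.09 and 0.16 in the receptor knockouts, and of -0.35 in Rxrα-OE, where Sox17 rose. Around Gata4, Gata6, Sox7 and Foxq1 the medians within 10 Mb were within 0.17 of 0 in each of these 7 comparisons. Within 5 Mb the medians around Gata4 and Sox7 were -0.19 in Rarα-KO, 0.03 in Rxrα-KO and -0.23 in RARX-DKO. Around Gata6 the median within 5 Mb was -0.18 in Rxrα-OE.

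**Figure D4:**
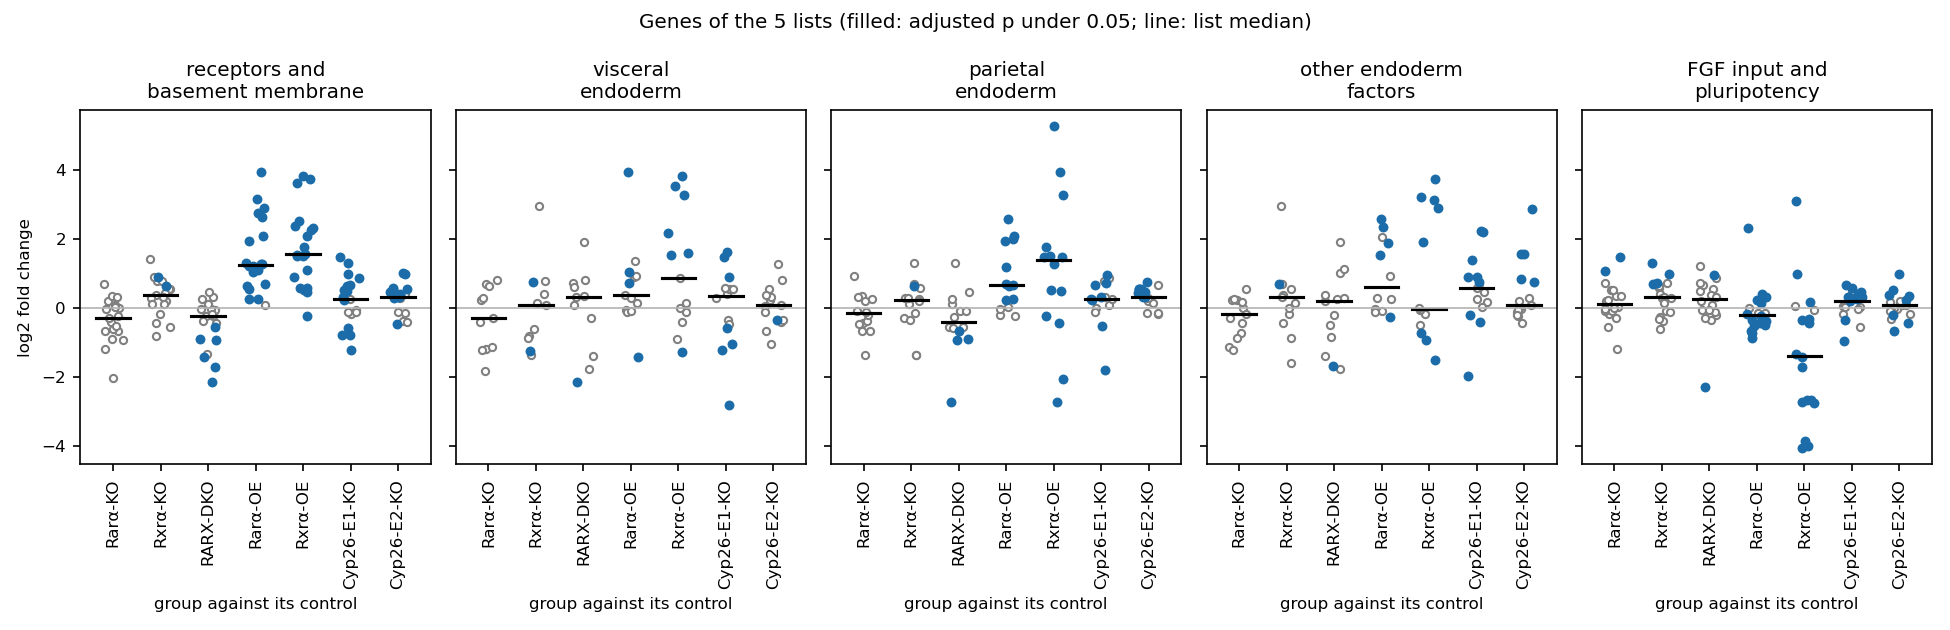
Log2 fold change (y axis) of every tested gene of 5 lists (panels) in the 7 comparisons with a control (x axis); filled points have an edgeR adjusted p under 0.05, lines are list medians, and Aqp8, at 0 counts in V-OE, is drawn at its lower bound. In the list of receptors and basement membrane 19 of 20 genes rose in both Rarα-OE and Rxrα-OE, and 6 of 19 fell in RARX-DKO.

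Of the surface receptors and basement membrane proteins that primitive endoderm makes, most did not pass in the knockout table and nearly all rose with overexpression. None of 19 tested passed in Rarα-KO, by edgeR, 2 rose in Rxrα-KO and 6 fell in RARX-DKO, with medians of -0.28, 0.36 and -0.25. Over all genes, 1.28% were higher in Rxrα-KO and 1.19% lower in RARX-DKO. The falls in RARX-DKO were Cubn, the endocytic receptor cubilin (-2.14 ± 0.49, adjusted p = 0.041), Dab2, an endocytic adaptor (-1.71 ± 0.40, 0.041), Pdgfra, a growth factor receptor that marks primitive endoderm (-1.43 ± 0.27, 0.0146), and 3 laminin chains led by Lama1 (-0.95 ± 0.16, 0.00788). In Rxrα-KO the endocytic receptor Lrp2 rose by 0.91 ± 0.20 (0.036) and the matrix protein Sparc by 0.62 ± 0.13 (0.0256).

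With Rarα-OE 19 of 20 of these genes rose, median 1.25, and with Rxrα-OE 19 rose and Nid1 fell, median 1.56. Over all genes 14.7% rose and 13.9% fell in Rarα-OE, and 30.9% rose and 29.3% fell in Rxrα-OE. Cubn rose from 1.90 ± 0.634 CPM in V-OE to 30.1 ± 3.15 in Rarα-OE and 27.5 ± 0.928 in Rxrα-OE (n = 2). Dab2 rose from 3.43 ± 1.78 to 31.8 ± 2.33 and 47.4 ± 0.341 CPM. Pdgfra rose from 7.16 ± 0.553 to 44.7 ± 2.70 and 30.9 ± 1.90 CPM, higher in Rarα-OE as Gata4 and Sox7 were. Aqp8, a water channel, had 0 counts in V-OE and was at least 6.76-fold and 12.3-fold higher, with a floor of 3 counts over the group. Col4a2, a chain of basement membrane collagen, rose by 2.51 ± 0.06 in Rxrα-OE.

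With the enhancer deletions 10 of 19 of these genes rose and 4 fell in Cyp26-E1-KO, and 11 rose and 1 fell in Cyp26-E2-KO. Over all genes 13.1% rose and 12.1% fell in Cyp26-E1-KO, and 9.28% rose and 8.2% fell in Cyp26-E2-KO. Dab2 rose by 0.99 ± 0.10 and 1.01 ± 0.10 on the log2 scale, and Cldn6, a tight junction protein, by 1.49 ± 0.13 and 0.99 ± 0.13. Amn, the partner of cubilin, fell by 1.21 ± 0.25 in Cyp26-E1-KO, and Cubn was lower there than in Cyp26-E2-KO by 0.92 ± 0.17.

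Of visceral endoderm genes 11 were tested in the knockout table, without a call in Rarα-KO, with 1 rise and 1 fall in Rxrα-KO, and 1 fall in RARX-DKO. With overexpression, of 13 tested, 3 rose and 1 fell in Rarα-OE, and 6 rose and 1 fell in Rxrα-OE, among them Bmp2 (3.53 ± 0.58) and Cited1 (3.27 ± 0.19). With the enhancer deletions, of 14 tested, 3 rose and 4 fell in Cyp26-E1-KO, and 1 fell in Cyp26-E2-KO. Lefty1, a secreted Nodal inhibitor, went from 219.6 ± 12.2 CPM in WT-Cyp26 to 31.4 ± 4.66 and 170.6 ± 14.2 in Cyp26-E1-KO and Cyp26-E2-KO (n = 3). Of 14 parietal genes 1 rose in Rxrα-KO and 4 fell in RARX-DKO, with Plat, a plasminogen activator, lowest (-2.74 ± 0.51, edgeR, adjusted p = 0.0131). The lists share genes, so their counts are not separate evidence. Cubn and Amn of the visceral list, and Lama1, Lamb1, Sparc and Nid1 of the parietal list, are also among the receptors and basement membrane genes. The visceral fall in RARX-DKO was Cubn, and the parietal rise in Rxrα-KO was Sparc. The shares over all genes given above apply to these lists too, and in Rxrα-OE, where 60.2% of all genes passed in either direction, 7 of 13 visceral genes did. In Rarα-OE 10 of 14 parietal genes rose and in Rxrα-OE 10 rose and 4 fell. Srgn, a proteoglycan core protein, went from 5.25 CPM in V-OE to 31.5 and 202.9. With the enhancer deletions 6 rose and 2 fell, and 8 rose, of 15.

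Among 18 other factors of these families, 13 were tested in the knockout table, where Klf5, a zinc finger factor, rose in Rxrα-KO (0.70 ± 0.15, edgeR, adjusted p = 0.0264). With overexpression 4 of 12 rose and 1 fell in Rarα-OE, and 5 rose and 3 fell in Rxrα-OE. The 8 of 12 in Rxrα-OE are near the 60.2% of all genes that passed there, and 28.6% did in Rarα-OE. Gata2 rose by 2.35 ± 0.27 and 3.22 ± 0.24. With the enhancers deleted 6 of 15 rose and 3 fell in Cyp26-E1-KO and 5 rose in Cyp26-E2-KO, where 25.3% and 17.5% of all genes passed in either direction. Gata3 rose by 2.21 ± 0.18 and 1.57 ± 0.18 and Eomes in Cyp26-E2-KO by 0.84 ± 0.09.

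Nanog, the factor opposed to GATA6, was at 469 and 411 CPM in WT-RARX, 999 and 841 in Rarα-KO, 351 and 325 in Rxrα-KO, and 835 and 558 in RARX-DKO. It was highest in the groups where Gata6 was low, and rose in Rarα-KO by 1.06 ± 0.18 on the log2 scale (edgeR, adjusted p = 0.022). In RARX-DKO its 0.66 ± 0.18 did not pass (0.0748). Nanog fell by 0.23 ± 0.04 in Rarα-OE and by 2.67 ± 0.04 in Rxrα-OE, although Gata6 stood at 110.4 and 110.7 CPM in these groups. It also fell in Cyp26-E1-KO (-0.96 ± 0.07) and Cyp26-E2-KO (-0.66 ± 0.07).

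Fgfr2, a receptor for the FGF4 signal, had log2 fold changes of -1.20 ± 0.28 in Rarα-KO (edgeR, adjusted p = 0.0787) and -0.26 ± 0.27 in Rxrα-KO (0.7). It fell by 2.303 ± 0.31 on the log2 scale in RARX-DKO (edgeR, adjusted p = 0.00193) and rose by 2.31 ± 0.11 in Rarα-OE and 3.09 ± 0.10 in Rxrα-OE. With the enhancer deletions it rose by 0.31 ± 0.07 in Cyp26-E1-KO and 0.37 ± 0.07 in Cyp26-E2-KO. Fgf4 itself went the other way with overexpression, from 234 ± 1.20 CPM in V-OE to 127.7 ± 9.74 and 16.0 ± 0.353. Of 18 genes for FGF input and pluripotency, 2 rose in Rarα-KO, 4 rose in Rxrα-KO, and 1 rose and 1 fell in RARX-DKO, where 0.645%, 2.47% and 2.24% of all genes passed in either direction. In Rarα-OE 5 rose and 10 fell, where 14.7% of all genes rose and 13.9% fell. In Rxrα-OE 3 rose and 13 fell, where 30.9% rose and 29.3% fell, with a list median of -1.39 and Sox2 at -4.08 ± 0.06. Of 19 tested with the enhancer deletions 9 rose and 2 fell in Cyp26-E1-KO, where 13.1% and 12.1% of all genes did. In Cyp26-E2-KO 5 rose and 3 fell, where 9.28% and 8.2% did.

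Markers of other cells moved with some of these results. The summed level of 10 stem cell genes was 6082 to 6209 CPM in WT-RARX and 7098 to 8739 in the 3 receptor knockouts, including Rxrα-KO. It was 8754 to 8978 in V-OE, 7341 to 7383 in Rarα-OE and 2651 to 2696 in Rxrα-OE, and 4309 to 4446 in WT-Cyp26 against 3724 to 4414 with a deletion. The sum over 11 trophoblast genes was 144.6 to 149.0 CPM in V-OE, 622 to 672 in Rarα-OE and 692 to 715 in Rxrα-OE, of which Krt8 and Krt18, keratins that endoderm makes too, gave most: 325.5 and 216.7 CPM in Rarα-OE. Elf5 stayed under 1 CPM in all groups, and Cdx2 reached 17.0 in Rxrα-OE. This sum ran from 102.2 to 177.8 CPM in the knockout groups, from 96.8 to 104.3 in WT-Cyp26 and from 108.9 to 144.8 with a deletion.

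For 12 genes of definitive endoderm and primitive streak the sum was 15.9 to 39.8 CPM in the knockout table, 25.9 to 26.6 in V-OE and 36.0 to 39.5 with a receptor. It was 42.8 to 47.2 CPM in WT-Cyp26 and 72.0 to 79.3 with an enhancer deleted, with Eomes and Foxa1 the main parts, which visceral endoderm also makes. Cardiac (10 genes, 5.73 to 31.9 CPM) and notochord sums (8 genes, 5.94 to 13.4) were low in all groups, with Actc1 at 0 throughout. Endothelial genes (10 genes), of cells that share SOX17 and SOX7, summed to 71.1 to 76.0 CPM in Rxrα-OE and 153.6 to 198.5 in the other overexpression groups. Few genes gave most of these sums: the median gene was at 0.398 CPM in Rxrα-OE, 0.869 in Rarα-OE and 1.03 in V-OE. The sums were 161.2 to 224.8 and 100.5 to 119.0 CPM in the knockout and enhancer tables. Fibroblast genes summed to 130.9 to 135.7 CPM in Rxrα-OE and 18.9 to 66.9 elsewhere, with Pdgfrb at 122.1 in Rxrα-OE and Postn at 0 in every overexpression group. The part of any of these cells in the changes of the 7 factors was not tested.

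Over the 7 comparisons with a control, each factor was also compared with 14631 genes tested in all tables by the Euclidean distance between log2 fold changes, as a description. The comparisons share controls and libraries within each table. The nearest gene to Gata4 was Amot, an angiomotin of cell junctions (distance 0.52), then Cubn and Runx1. Gata6 was nearest to Pdgfra (0.85), then Tcf23 and Fgfr2. Sox17 was nearest to Dab2 (1.23), then Foxq1 and Amot, and Sox7 to Lama1 (0.87), then Lamb1 and Pdgfra. Foxq1 was nearest to Amot (1.01), then Cubn and Sox17.

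Foxa2 had no close match, with Capn6 at 1.64 followed by Hoxb1 and Pgam2. Hnf4a was nearest to Wfdc15a (1.73), Lefty1 (1.76) and P2rx3 (1.87). All 3 had low values in Cyp26-E1-KO, from -2.70 to -3.08 on the log2 scale, which their choice by nearness to Hnf4a favours. Between the factors themselves, Hnf4a was 5.94 to 7.82 from each of the others, and those 6 were 1.24 to 4.52 from one another.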

How the data were processed

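RNA-seq was measured in 23 of the 75 samples. Tables of whole-number counts per gene were deposited by the authors, and the submitters' processing notes name mm10 and, with no role or order, MACS2 2.2.7.1, Bowtie2 2.3.1, HTSeq 0.9.1, HISAT2 2.1.0 and DESeq2 1.18.1. The annotation release and strand setting are not given in the sources used here. Contact maps and H3K27Ac libraries were not analysed here.

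Each table was fitted on its own with edgeR 4.0.16 (quasi-likelihood, robust, TMM scaling, R 4.3.3, limma 3.58.1) over all its groups, after filterByExpr with a minimum count of 10, which left 16445, 16914 and 18768 genes. P-values were adjusted by the Benjamini-Hochberg method over all tested genes, with a threshold of 0.05, and SE is the absolute log2 fold change divided by the square root of F. CPM used TMM-scaled library sizes. All 7 factors passed the filter in each table. Foxa2 passed through only some of the groups, as given with its values, and Hnf4a through V-OE and Rarα-OE in the overexpression table and through WT-Cyp26 and Cyp26-E2-KO in the enhancer table. The script was tested on simulated data. Alternatives were RLE factors, library totals, no filter, DESeq2 1.42.0, a replicate block, only the groups compared, leaving out each library, and 5 Mb in place of 10 Mb for neighbours. A block with the RARX-DKO numbers crossed was added after seeing the data.

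The members and lists were chosen with earlier results of these data known. Beside the 7 factors, the text names the targeted genes and Cyp26a1, Nanog, Fgf4, Fgfr2, Pdgfra and Dab2, up to 4 called genes of largest change per list and comparison, and the 3 nearest genes to each factor. Lists covered endoderm receptors and basement membrane, visceral endoderm, parietal endoderm, other endoderm factors, and FGF input with pluripotency. The result of 1 gene of these lists is not reported here. For groups of 3, the rule for a possible pairing was that every same-numbered pair correlated above 0.1. Cyp26-E1-KO and Cyp26-E2-KO met it (0.118 to 0.402), and neither did with WT-Cyp26 (-0.207 to 0.134). A pairing is not established by this, since Cyp26-E1-KO replicate 3 correlated more with Cyp26-E2-KO replicate 1 (0.263) than with its own number (0.118). Groups of 2 (-0.317 to 0.151) have too few pairs for that rule, so their libraries share only a number.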

Additional observations from a re-analysis of the deposited data

How the results depend on the processing

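Of the log2 fold changes of the 7 factors under all alternatives, 924 kept their direction and side of the threshold, 24 gained and 36 lost the call, and 9 changed sign. For members called, Rarα-KO against WT-RARX gave 3 without the filter, 2 by DESeq2, 2 with only the groups compared and 0 to 1 when 1 library was left out. RARX-DKO against WT-RARX gave 6 without the filter, 5 with crossed numbers and 1 to 3 with a library left out. Rxrα-KO against Rarα-KO gave 1 to 4 with a library left out. RARX-DKO against Rxrα-KO gave 2 with only the groups compared and 3 to 5 with a library left out. The departure from the summed effects gave 1 without the filter and 1 by DESeq2. Rxrα-OE against Rarα-OE gave 3 by DESeq2 and 3 to 6 with a library left out, and Cyp26-E1-KO against WT-Cyp26 gave 2 to 5.

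Signs changed only when a library was left out, never for a call. Foxa2 ran from -0.15 to 0.89 in Rxrα-KO, from -1.998 to 3.34 in RARX-DKO against Rarα-KO and from -2.29 to 3.05 in the departure. Hnf4a ran from -0.46 to 0.72, from -0.0645 to 1.11 and, in Rarα-OE, from -0.53 to 0.72, and Gata6 in Rxrα-OE against Rarα-OE from -0.0372 to 0.0343. The cause was not tested.

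With a replicate block RARX-DKO against WT-RARX had 2 calls rather than 3, without Sox17, and between the enhancer deletions the block changed no call. In 2 groups of 2 with negative correlations the crossed block gave 5 calls against WT-RARX, 0 against Rarα-KO and 6 against Rxrα-KO. Between the enhancer deletions 3 of 6 libraries correlated best with their own number, 2 of 6 between WT-Cyp26 and Cyp26-E1-KO, and 4 of 6 between WT-Cyp26 and Cyp26-E2-KO.

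Counts over all genes moved more. For Rarα-KO against WT-RARX 106 genes became 8 to 29 with a library left out and 86 to 588 under other settings, for Rxrα-KO 407 became 21 to 361 and 314 to 1084, and for RARX-DKO 368 became 32 to 408 and 296 to 981. Rxrα-KO against Rarα-KO went from 885 to 111 to 648 and 603 to 1840, RARX-DKO against Rarα-KO from 2 to 3 to 47 and 0 to 58, RARX-DKO against Rxrα-KO from 575 to 174 to 879 and 30 to 1366, and the departure from 0 to 0 to 17 and 0 to 115. Rarα-OE went from 4829 down to 2416 by DESeq2, and Rxrα-OE against Rarα-OE from 7979 down to 5008. Cyp26-E2-KO against WT-Cyp26 went from 3280 to 1978 to 2220 and 3259 to 5731, and the deletions against each other from 842 to 310 to 1852 and 339 to 1384. Scaling by library totals alone moved the split of higher and lower genes from 210 and 197 to 170 and 258 in Rxrα-KO, from 360 and 525 to 254 and 731 in Rxrα-KO against Rarα-KO, from 331 and 244 to 414 and 173 in RARX-DKO against Rxrα-KO, and from 380 and 462 to 505 and 334 between the deletions. Neighbour medians within 5 Mb moved for 50 values, and for 41 did not, by more than the SD between libraries. Depth limits Foxa2 and Hnf4a most, at 0 to 31 counts for Foxa2 in knockout libraries.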
